A study of Danio rerio with 16 samples.

Results

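Integrins are paired receptors of alpha and beta chains that bind the matrix outside a cell and, through adaptor proteins, the actin cytoskeleton inside it. The genes described here code for the integrin chains and for the core proteins of the focal adhesion, the assembly that joins a bound integrin to actin. The members were found by symbol and not by their values, although the gene family itself was picked with earlier results of these data known. They are every row of the count table whose symbol began with those of the integrin alpha or beta chains, parvins, LIMS1 and LIMS2 (PINCH), talins, vinculin, paxillin, PTK2 (focal adhesion kinase), kindlins (FERMT), zyxin or tensins, together with ILK (integrin-linked kinase). Symbols beginning with itgb1bp, of integrin-binding proteins, were left out. The rule found 65 gene IDs, carrying 55 distinct symbols, among 32520 genes. By role, 22 were integrin alpha chains, 12 beta chains, 7 talins or kindlins, 7 members of the ILK, PINCH and parvin group, 11 vinculins, zyxins, paxillins or tensins, and 4 focal adhesion kinases. A further 2, ITGBL1 and itgb3bp, matched by symbol only and code for neither an integrin chain nor an adhesion adaptor. No ID had the symbol ITGA7 or ITGAL, so these alpha chains are not described here. Symbols are given as the naming table has them, where capitals mark the human gene's symbol, and an ID follows where several zebrafish genes share 1 symbol.

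RNA was sequenced from the trunk muscle of adult zebrafish in 4 groups of 4 fish, with 1 fish in each library. Wild types were of the strain AB (Oregon), and mutants came from a line with the allele ankrd1a bns502, made by CRISPR/Cas9. Ankrd1 is an ankyrin repeat protein of striated muscle. Injured fish of each genotype had been stabbed with a needle in the dorsal tail muscle and sampled 5 days later, and the other fish gave the same region uninjured. No group received any other agent, and age, sex and the relation of the wild types to the mutant line are not given in the labels. An effect of the allele and any other difference between these lines therefore cannot be told apart. The position of the lesion in ankrd1a is not given either, so the 2 IDs with the symbol ANKRD1 (means of 3.53 and 1.22 CPM in non-injured wild types and mutants for ENSDARG00000075263, and 166 and 132 CPM after injury) check nothing about the labels.

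Libraries of non-injured wild types held 18011139 to 25231102 estimated counts, and those of injured wild types 22006028 to 24189272. Most mutant libraries were smaller, at 17523688 to 19811573 without injury and 17324482 to 17994069 after it. Markers of skeletal muscle fibres summed to between 102760 and 238373 CPM (counts relative to the TMM-scaled library size) in every library, so the labelled tissue was present. Epidermis markers were detected as well: the summed level of 10 epidermis markers ran from 384 to 2150 CPM in non-injured wild types, 333 to 1579 in injured wild types, 210.1 to 864 in non-injured mutants and 418 to 1013 in injured mutants. Non-injured wild type 1 and injured wild type 1 stood apart at the top of that range, so counts of members are also given without the library highest in epidermis markers in each group.

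In skeletal muscle, integrins are concentrated at the myotendinous junction, where fibres meet tendon, and at costameres, which tie the outermost sarcomeres to the membrane and matrix. Talin and kindlin bind the tail of the beta chain and switch the receptor on, vinculin and tensin add links to actin, and ILK, PINCH and parvin form a complex that docks on the same tail. Paxillin and focal adhesion kinase carry signals from the site, and zyxin gathers on actin under tension. Other cells bring their own set: leukocytes carry beta2 integrins and kindlin-3, epidermis carries the alpha6 beta4 pair of hemidesmosomes, and thrombocytes, the fish counterpart of platelets, carry alphaIIb beta3.

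Of the 65 IDs, 59 passed the filter on low counts and were tested. The 6 that did not (itga2.1, itga6l, itgam.2, itgb3bp, FERMT1 and tns3.1) had between 12 and 115 counts in all 16 libraries together. The filter asks for the minimum count in only as many libraries as 1 group holds, so a gene that is high in a single group can pass through that group. A gene was called at an edgeR quasi-likelihood adjusted p below 0.05 over all 16514 genes tested.

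After injury in wild types, 9 members rose and 4 fell of the 59 tested, beside 23.8% of all genes called (11.8% higher and 11.9% lower). That is 22% of the tested members, close to the share among all genes. The median log2 fold change was 0.12 for the members and -0.03 for all genes. Leaving out non-injured wild type 3 raised the number called from 13 to 20, and leaving out the library highest in epidermis markers in each group lowered it to 10. In mutants 15 members rose and 7 fell, which is 37.3% of the tested members, beside 27.2% of all genes called (14.0% higher and 13.3% lower). The medians were 0.41 for the members and -0.02 for all genes, and 20 members were called without the libraries highest in epidermis markers. Integrin alpha chains, 19 of the 59 tested, accounted for 9 of the 15 that rose in mutants and for 4 of the 9 that rose in wild types. Of these chains 52.6% were called in mutants, beside 27.2% of all genes. In wild types 21.1% were called, close to the 23.8% of all genes. The calls of ITGA4, ITGAV and itgae.2 in mutants depended on single libraries, as given below. In the other roles, without the genes matched by symbol only, shares in mutants ran from 16.7% (beta chains, and talins or kindlins) to 42.9% (ILK, PINCH and parvin). In wild types they ran from 0% (talins or kindlins, and focal adhesion kinases) to 40% (vinculins, zyxins, paxillins or tensins).

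The calls in both genotypes numbered 11, which is 84.6% of the 13 in wild types and 50% of the 22 in mutants, and the direction was opposite for 0 members. The same shares over all genes were not computed here, so this overlap cannot be read as particular to the members. Those that rose in both were ITGA6, ITGA5, ITGA11 (ENSDARG00000036086), itgae.1, ITGB6, ITGB1 (ENSDARG00000104484) and ZYX. Of these, ITGB6 passed the filter on low counts only with its injured fish counted, as given below. Those that fell in both were lims2, TNS1, tns2a and PXN (ENSDARG00000088590). A call in 1 genotype only does not show a difference between genotypes, which is tested further on.

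**Figure D1:**
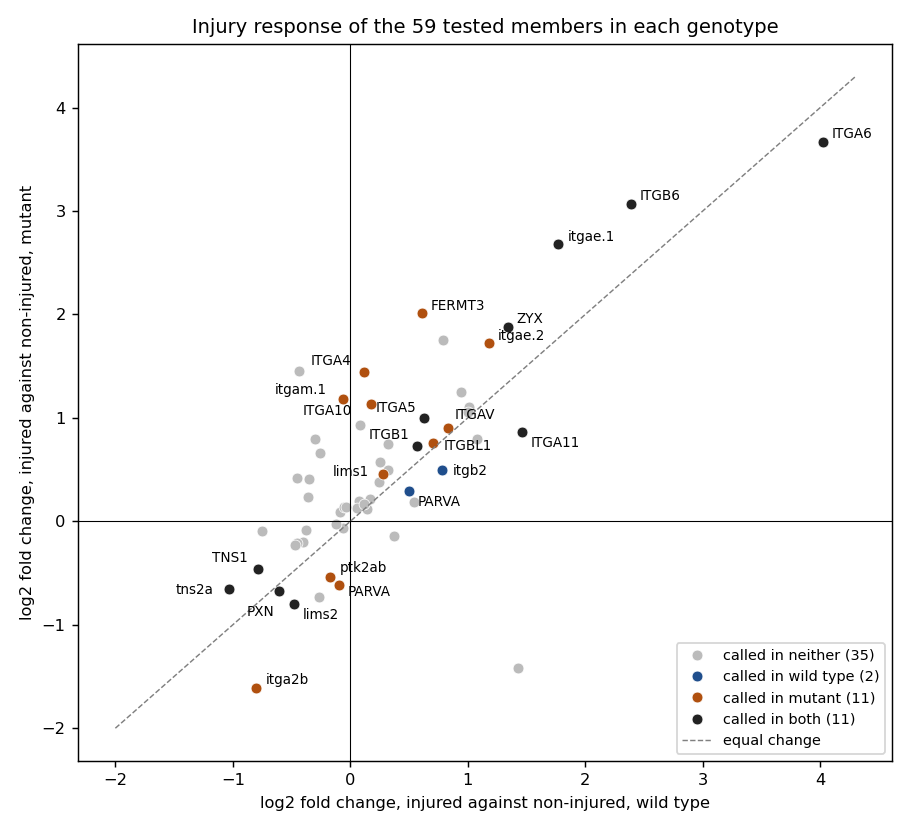
Log2 fold change of injured against non-injured fish in wild types (x axis) and mutants (y axis) for the 59 tested members, 4 fish per group, coloured by the comparison in which the gene was called, with a dashed line at equal change. ITGA6 lies farthest to the upper right, at 4.02 and 3.67, and the 4 members called lower in both genotypes lie together at the lower left.

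ITGA6, the alpha6 chain of laminin receptors, changed most among the members in both genotypes. It stood at 0.711, 1.34, 0.516 and 0.77 CPM in the 4 non-injured wild types and at 13.1, 13.8, 14.3 and 12.7 CPM in the 4 injured ones. In mutants the levels were 0.808, 2.03, 1.69 and 1.6 CPM without injury and 21.8, 18, 16 and 22.5 CPM after it. Every injured fish lay far above every non-injured fish of its genotype, by 16.2-fold in wild types (log2 4.02, SE 0.27, adjusted p = 3.2e-07) and 12.8-fold in mutants (log2 3.67, SE 0.26, adjusted p = 3.1e-07). The second alpha6 gene, itga6b, behaved otherwise. It ran from 17.9 to 60 CPM in non-injured and from 17.6 to 37.3 CPM in injured wild types and was called in neither genotype (log2 -0.45, adjusted p = 0.33, and 0.42, adjusted p = 0.35). Satellite cell markers rose beside ITGA6, 6 of 8 in each genotype. They summed to 64.3 to 92.6 CPM without and 100.5 to 125 CPM after injury in wild types, and to 68.1 to 81.6 and 137 to 175 CPM in mutants. Their part in the ITGA6 value was not tested, and in bulk tissue a change in the number of cells of a type and a change in RNA per cell cannot be told apart.

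ITGA5, the alpha5 chain of the fibronectin receptor, rose in both genotypes. Its levels were 17.8, 15, 14.9 and 13.2 CPM in non-injured wild types and 22.9, 23, 23.4 and 25 CPM in injured ones. In mutants they were 16, 16.7, 17 and 22.7 CPM without injury and 36, 40.5, 28.6 and 40 CPM after it. The groups did not overlap, and the log2 fold changes were 0.63 (SE 0.14, adjusted p = 0.0046) and 1.0 (SE 0.14, adjusted p = 0.00014). ITGAV, the alpha chain of several vitronectin and fibronectin receptors, rose in mutants from between 11 and 17.6 CPM to between 21.7 and 28.1 CPM (log2 0.90, SE 0.29, adjusted p = 0.034). The corresponding values in wild types were 10.7 to 24.1 and 15.1 to 46.6 CPM, and these groups overlapped (log2 0.83, SE 0.29, adjusted p = 0.051). The ITGAV call in mutants was lost without 6 of the 16 libraries in turn, with the highest adjusted p of 0.09 without non-injured mutant 1.

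Of the collagen-binding alpha chains, ITGA11 (ENSDARG00000036086) rose in both genotypes. Its levels were 5.04, 3.05, 3.71 and 2.86 CPM in non-injured and 11.3, 12.5, 7.7 and 8.87 CPM in injured wild types (log2 1.46, SE 0.21, adjusted p = 0.00026). Mutants went from 4.69, 5.55, 5.38 and 3.39 CPM to 8.07, 9.8, 9.33 and 7.33 CPM (log2 0.86, SE 0.21, adjusted p = 0.0071), and no injured fish overlapped a non-injured one. The other gene with this symbol, ENSDARG00000007950, was called in neither (log2 0.25 and 0.57), nor was ITGA1, another collagen-binding chain, at -0.06 in both. ITGA10, a collagen-binding chain known from cartilage in mammals, rose in mutants from 7.22, 10.3, 8.13 and 13.3 CPM to 21.3, 23.9, 21.3 and 18.7 CPM (log2 1.13, SE 0.24, adjusted p = 0.0031). In wild types its groups overlapped, at 15 to 27.5 and 15.2 to 28.8 CPM (log2 0.18, adjusted p = 0.62). Of these genes, only ITGA11 (ENSDARG00000036086) was called in wild types. Fibroblast and tendon markers rose in both genotypes, 7 of 10 in wild types and 6 of 10 in mutants. Their summed level went from between 2622 and 4599 to between 9484 and 12368 CPM in wild types, and from between 2700 and 3260 to between 6966 and 8251 CPM in mutants. The part of these cells in the integrin values was not tested.

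Among the beta chains the gene family of ITGB1, the common partner of most matrix-binding alpha chains, has 4 IDs. ENSDARG00000104484 rose in both genotypes, from 23.9, 22.8, 21.4 and 25.5 CPM to 34.3, 37.1, 35.2 and 32.6 CPM in wild types and from 27.9, 25.5, 26.6 and 28.4 CPM to 49.3, 44.8, 42.7 and 43.2 CPM in mutants. The groups were tight and well apart, with log2 fold changes of 0.57 (SE 0.09, adjusted p = 0.00064) and 0.73 (SE 0.09, adjusted p = 6.5e-05). ENSDARG00000071863 ran from 92.2 to 104 CPM in non-injured and from 114 to 136 CPM in injured wild types without passing the test (log2 0.37, SE 0.19, adjusted p = 0.17). In mutants it ran from 45.4 to 83.4 and from 50.9 to 72.4 CPM (log2 -0.14, adjusted p = 0.62). The remaining IDs were scarce, with at most 5.98 CPM in any library, and were called in neither genotype. Estimated counts divide reads among similar genes, so a single ID of such a family is less certain than its sum. Summed over the 4 IDs, ITGB1 rose in wild types (log2 0.41, SE 0.14, adjusted p = 0.04) and was not called in mutants (log2 0.20, SE 0.14, adjusted p = 0.31).

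ITGB6, a beta chain that pairs with alpha v on epithelia in mammals, rose from 1.84, 0.305, 0.413 and 0.453 CPM to 5.98, 4.23, 2.22 and 3.13 CPM in wild types. In mutants it rose from 0.485, 1.01, 0.686 and 0.0639 CPM to 6.2, 4.42, 3.75 and 5.02 CPM. Injured and non-injured fish did not overlap (log2 2.39, SE 0.55, adjusted p = 0.0063, and 3.07, SE 0.57, adjusted p = 0.0013). The non-injured fish alone would not have met the filter on low counts. ITGB6 was therefore tested only because it was high in injured fish, and its rise is not independent of that filter. Both calls were kept in all 24 alternative settings, which include the fit with no low count filter. In each of the 4 groups the highest ITGB6 value came from the library highest in epidermis markers. Without those 4 libraries the log2 fold change was 3.0 (SE 0.47, adjusted p = 0.0026) in wild types and 3.36 (SE 0.48, adjusted p = 0.00088) in mutants. Epidermis markers were detected in the remaining libraries too, and the part of epidermis in the ITGB6 value was not tested. ITGB5, another partner of alpha v, stayed between 9.13 and 11.8 CPM in all 16 libraries (log2 -0.09 and 0.09, called in neither). ITGBL1, which carries integrin-like repeats but is no receptor chain, rose in mutants (log2 0.76, SE 0.25, adjusted p = 0.033) and missed the threshold in wild types (log2 0.70, SE 0.25, adjusted p = 0.05). The ITGBL1 call in mutants was lost without 5 of the 16 libraries in turn (highest adjusted p = 0.11, without injured mutant 1).

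**Figure D2:**
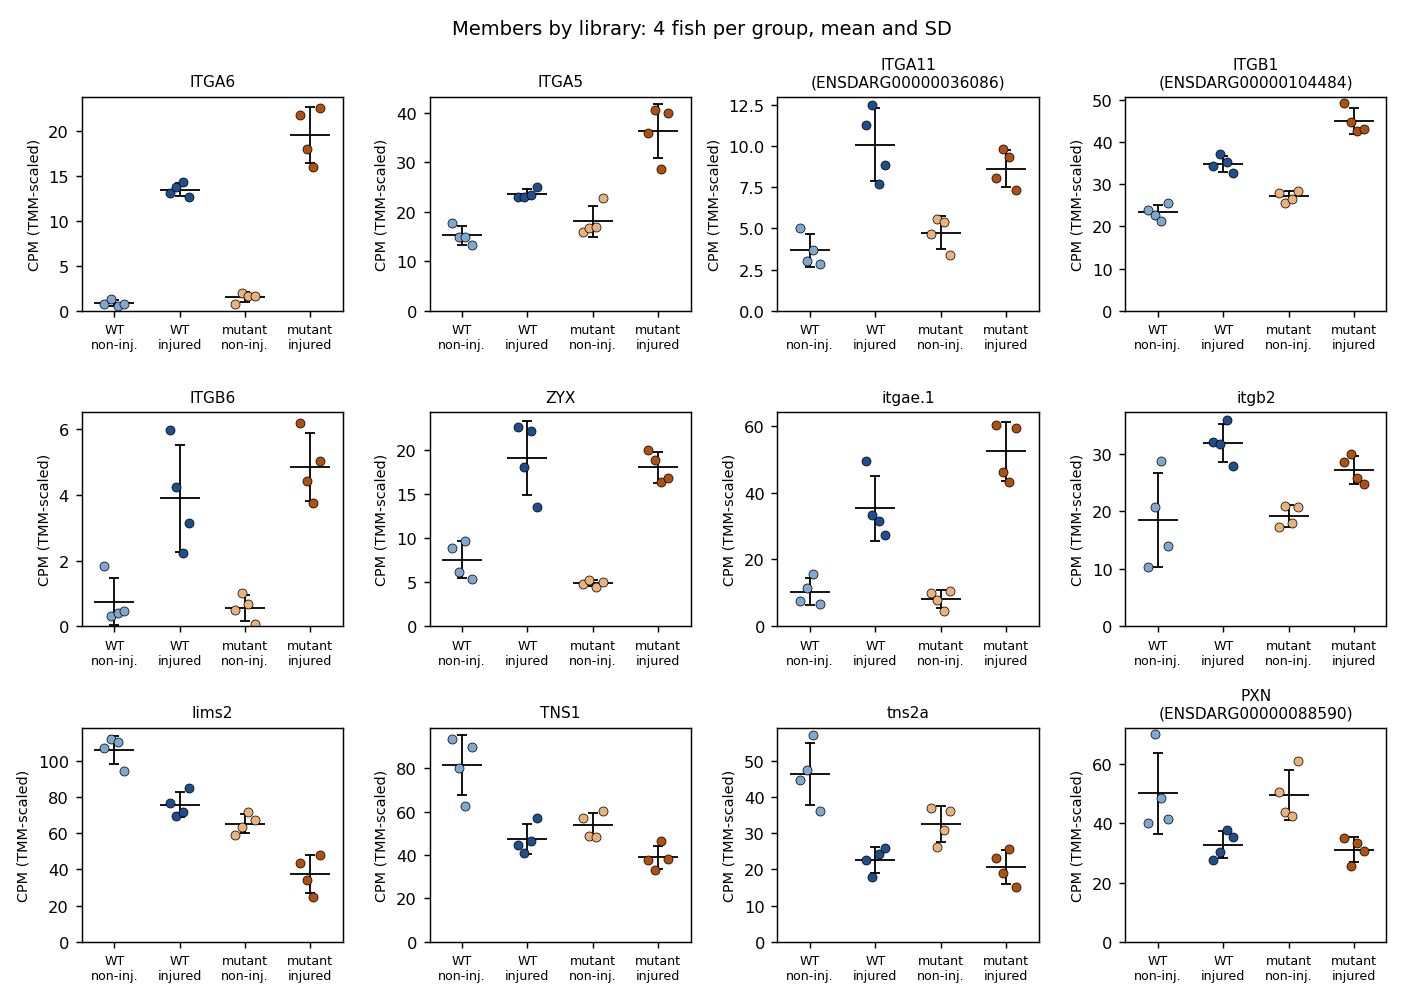
CPM after TMM scaling for 12 members in each of the 16 libraries, by genotype and injury, with the mean and SD of 4 fish. The members that rose in both genotypes show no overlap between injured and non-injured fish of a genotype, itgb2 overlaps in wild types, and lims2, TNS1, tns2a and PXN are lower after injury. The members shown were picked from those called, and the share of all genes without overlap was not computed here.

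Integrins and adaptors of leukocytes formed the next group. The gene itgae.1, related to the alphaE chain that pairs with beta7 on mammalian lymphocytes, rose from 7.47, 11.6, 15.7 and 6.75 CPM to 49.4, 33.3, 31.5 and 27.2 CPM in wild types. In mutants it rose from 9.86, 7.74, 4.7 and 10.5 CPM to 60.4, 46.2, 43.3 and 59.5 CPM. All injured fish exceeded all non-injured fish of their genotype (log2 1.77, SE 0.29, adjusted p = 0.00067, and 2.68, SE 0.30, adjusted p = 2.2e-05). Its relative itgae.2 rose in mutants, from between 0.422 and 1.73 to between 1.87 and 3.31 CPM (log2 1.72, SE 0.58, adjusted p = 0.037), a call lost without 6 of the 16 libraries in turn (highest adjusted p = 0.1, without non-injured mutant 3). In wild types its log2 fold change was 1.18 (adjusted p = 0.13). The beta7 gene, itgb7, was at or below 4.49 CPM in every library and was called in neither genotype (log2 1.01 and 1.11, adjusted p = 0.15 in both).

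The beta2 chain itgb2, shared by the leukocyte integrins, rose in wild types, from 10.3, 20.8, 28.8 and 14 CPM to 32.1, 31.6, 35.9 and 27.8 CPM (log2 0.78, SE 0.23, adjusted p = 0.02). Non-injured wild type 3, at 28.8 CPM, overlapped the injured group. The call was lost without non-injured wild type 4 (adjusted p = 0.062), without injured wild type 3 (0.052), with only the 8 wild type libraries fitted (0.085) and without the library highest in epidermis markers in each group (0.1). In mutants the values went from 17.2, 20.9, 18 and 20.8 CPM to 28.5, 29.9, 25.7 and 24.7 CPM without overlap, but the test was not passed (log2 0.50, SE 0.23, adjusted p = 0.11). It was passed with only the 8 mutant libraries fitted (log2 0.52, SE 0.11, adjusted p = 0.0078).

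The gene itgam.1, related to the alphaM chain that pairs with beta2 on mammalian myeloid cells, was not called in wild types. It stood at 19.3, 25.3, 34 and 37.9 CPM without injury and at 33.7, 35.1, 24 and 18.9 CPM after it (log2 -0.06, SE 0.24, adjusted p = 0.89). In mutants it rose from 3.07, 3.2, 3.11 and 5.18 CPM to 8.63, 9.02, 9.28 and 6.02 CPM (log2 1.18, SE 0.26, adjusted p = 0.0039). Every mutant value, injured or not, lay below every wild type value. FERMT3 (ENSDARG00000079267), a gene for kindlin-3, the kindlin of blood cells, rose in mutants from between 0.575 and 0.897 to between 2.16 and 3.5 CPM (log2 2.01, SE 0.39, adjusted p = 0.0017). In wild types it ran from 0.77 to 2.79 and from 1.56 to 3.22 CPM (log2 0.61, adjusted p = 0.24).

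ITGA4, the alpha4 chain by which leukocytes bind VCAM1 and fibronectin, rose in mutants from between 0.862 and 1.64 to between 3.26 and 4 CPM (log2 1.44, SE 0.46, adjusted p = 0.031). That call was lost without 7 of the 16 libraries in turn, with the highest adjusted p of 0.086 without non-injured mutant 1. In wild types non-injured fish 3 alone reached 5.73 CPM against 1.01 to 1.27 in the other three (log2 0.12, adjusted p = 0.88). The parvin of blood cells, parvg, was at 0.861 to 2.37 and 1.27 to 4.53 CPM in non-injured and injured wild types and was called in neither genotype (log2 1.0 and 1.06, adjusted p = 0.087 and 0.067).

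Of this leukocyte group, only itgae.1 and itgb2 were called in wild types. Macrophage markers rose after injury in both genotypes. Of 13 tested, 5 rose in wild types and 11 in mutants, and 0 of 14 IDs were at 0 in every library. Their summed level was 74.4 to 209 CPM in non-injured and 133 to 274 CPM in injured wild types, 80.9 to 101 CPM in non-injured and 209 to 289 CPM in injured mutants. The highest non-injured value, 209 CPM, was that of wild type 3, the same fish that was highest in its group for itgb2, itgae.1, itgae.2 and ITGA4. Pan-leukocyte and lymphocyte markers, of which 0 of 7 tested were called in wild types and 2 in mutants, summed to 29.1 to 88.3 and 40.1 to 123 CPM in wild types and to 36.4 to 39.2 and 56.4 to 98.9 CPM in mutants. The part of leukocyte number in these integrin values was not tested.

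The thrombocyte integrin was measured at low levels. The alphaIIb chain, itga2b, fell in mutants from 1.24, 0.854, 1.85 and 1.21 CPM to 0.466, 0.414, 0.296 and 0.502 CPM (log2 -1.61, SE 0.41, adjusted p = 0.0088). Wild types ran from 0.792 to 2.9 CPM without injury and from 0.609 to 1.2 CPM after it, with overlap (log2 -0.80, adjusted p = 0.14). Both ITGB3 genes, for the beta3 chain, were called in neither genotype (ENSDARG00000045070 at log2 0.32 and 0.50, ENSDARG00000056767 at log2 -0.44 and 1.45). Of 3 thrombocyte markers tested, 2 also fell in mutants and 0 were called in wild types. Of these 2, GP1BB was called higher in non-injured mutants than in non-injured wild types (log2 2.11, SE 0.38, adjusted p = 0.0093). It averaged 5.95 ± 3.53 CPM (SD, n = 4) in those mutants and 1.37 ± 0.16 CPM in those wild types. The gene itga2b was not called there, at means of 1.29 and 1.56 CPM. The 4 markers summed to 5.5 to 16 CPM in non-injured and 1.76 to 3.96 CPM in injured mutants, against 3.72 to 5.31 and 1.94 to 5.87 CPM in wild types, and their part in the itga2b value was not tested.

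In the complex of ILK, PINCH and parvin there were calls in both directions. The PINCH gene lims2 fell in both genotypes, from 107, 112, 110.3 and 94.6 CPM to 76.9, 69.5, 72 and 84.9 CPM in wild types and from 59.2, 63.2, 71.7 and 67.2 CPM to 43.4, 34, 24.7 and 47.9 CPM in mutants. No injured fish overlapped a non-injured one of its genotype (log2 -0.48, SE 0.17, adjusted p = 0.046, and -0.80, SE 0.17, adjusted p = 0.0027). The call in wild types was lost without 10 of the 16 libraries in turn, with the highest adjusted p of 0.12 without injured wild type 2, and at a log2 of -0.11 (adjusted p = 0.69) when libraries were scaled by size only. The mutant call was kept in all 24 alternative settings.

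The other PINCH gene, lims1, rose in mutants, from 27.8, 31.2, 26 and 27 CPM to 40.3, 35.1, 41 and 38.1 CPM (log2 0.46, SE 0.12, adjusted p = 0.011). In wild types the values were 31.8, 31.1, 35.3 and 23.2 CPM and then 34.8, 37.9, 39.2 and 35.4 CPM, with overlap (log2 0.28, SE 0.12, adjusted p = 0.11). The ratio of lims1 to lims2 counts within a library, which needs no scaling between libraries, was 0.286 ± 0.0321 (SD, n = 4) in non-injured wild types and 0.49 ± 0.0653 in injured ones. In mutants it was 0.432 ± 0.0607 without injury and 1.1 ± 0.383 after it, with the injured mutants between 0.795 and 1.66. Every injured mutant lay above every fish of the other 3 groups, whose highest ratio was 0.545. Since lims2 was itself called, the ratio describes its values again and is no separate test.

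ILK itself, the kinase-like scaffold of the complex, was called after injury in neither genotype. It ran from 33.2 to 42.1 and from 38 to 42.4 CPM in wild types and from 43.2 to 58.9 and from 50.5 to 57.6 CPM in mutants (log2 0.14 and 0.12, SE 0.11). The alpha-parvin genes split by ID: PARVA (ENSDARG00000043710) rose in wild types from 3.56, 3.72, 4.59 and 3.58 CPM to 5.69, 5.34, 5.48 and 5.41 CPM (log2 0.50, SE 0.16, adjusted p = 0.033), and ENSDARG00000035629 fell in mutants from 8.83, 9.34, 8.92 and 10.4 CPM to 5.55, 6.77, 7.11 and 4.92 CPM (log2 -0.62, SE 0.22, adjusted p = 0.045). Both calls were weak: the first was lost without 6 of the 16 libraries in turn (highest adjusted p = 0.08, without non-injured wild type 4) and the second without 10 (highest 0.12, without injured mutant 4). Summed over both IDs, PARVA was called in neither genotype (log2 0.13, adjusted p = 0.56, and -0.31, adjusted p = 0.12). PARVB, beta-parvin, was at log2 -0.45 (adjusted p = 0.052) in wild types and -0.21 (adjusted p = 0.37) in mutants.

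**Figure D3:**
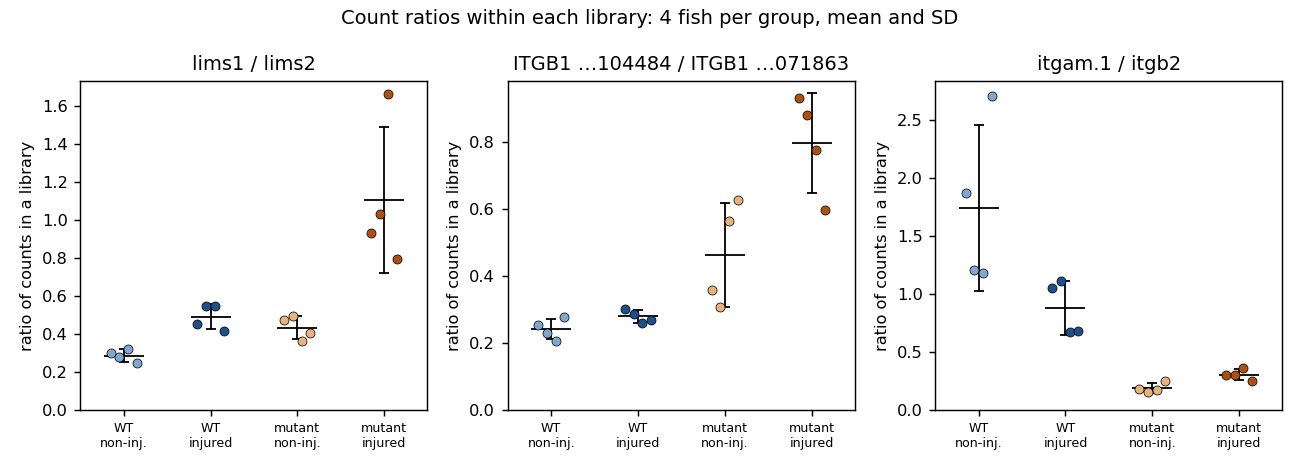
Ratio of the counts of gene pairs within each library (y axis, linear from 0) for the 4 groups of 4 fish, with the mean and SD. The lims1 to lims2 ratio is highest in injured mutants (0.795 to 1.66), the ratio of ITGB1 ENSDARG00000104484 to ENSDARG00000071863 is higher in both mutant groups, and the itgam.1 to itgb2 ratio is at most 0.361 in mutants and at least 0.668 in wild types.

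The talins, which join the beta chain to actin, were called in neither genotype after injury. TLN1 stayed between 77.2 and 104 CPM over all 16 libraries (log2 0.06 and 0.13, SE 0.11), and TLN2 between 75.8 and 137 CPM (log2 0.12 and 0.17, SE 0.18). FERMT2, the kindlin of muscle and other solid tissues, ran from 16.7 to 41.2 CPM and was not called either (log2 -0.40, adjusted p = 0.13, and -0.20, adjusted p = 0.45). Both vinculin genes also failed to pass, with log2 fold changes of -0.47 (adjusted p = 0.091) and -0.23 for VCL (ENSDARG00000044968) and of -0.05 and 0.14 for ENSDARG00000098695.

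Zyxin, ZYX, rose in both genotypes. It went from 8.89, 6.21, 9.75 and 5.35 CPM to 22.7, 18.1, 22.2 and 13.6 CPM in wild types and from 4.85, 5.28, 4.49 and 4.99 CPM to 20.1, 18.9, 16.4 and 16.9 CPM in mutants. Groups were far apart in both genotypes (log2 1.34, SE 0.19, adjusted p = 0.00023, and 1.88, SE 0.20, adjusted p = 1.1e-05). Both calls were kept in all 24 alternative settings.

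The adaptors that fell were 2 tensins and 1 paxillin. TNS1, which links beta chains to actin, fell from 93.8, 80.1, 62.6 and 90.1 CPM to 44.7, 40.8, 46.5 and 57.1 CPM in wild types (log2 -0.79, SE 0.15, adjusted p = 0.0021). In mutants it fell from 57.3, 48.8, 48.5 and 60.2 CPM to 37.7, 33.2, 46.4 and 38.4 CPM (log2 -0.46, SE 0.15, adjusted p = 0.034). The groups did not overlap, but the mutant call was lost without 5 of the 16 libraries in turn (highest adjusted p = 0.1, without injured mutant 2).

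The tensin tns2a fell from 44.9, 47.4, 57.1 and 36.3 CPM to 22.6, 17.8, 24.4 and 25.9 CPM in wild types, and from 37.1, 26.2, 30.8 and 36.2 CPM to 23.3, 18.9, 25.8 and 15.1 CPM in mutants. Again the groups did not overlap (log2 -1.03, SE 0.19, adjusted p = 0.0013, and -0.65, SE 0.19, adjusted p = 0.017). The mutant call was lost without injured mutant 4 (adjusted p = 0.056). The tensins tns1a, tns2b and tns3.2, were called in neither genotype, and tns1a was at log2 -0.35 in wild types and 0.41 in mutants.

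The paxillin gene PXN (ENSDARG00000088590) fell from 40.2, 70, 48.7 and 41.6 CPM to 27.7, 30.4, 37.9 and 35.3 CPM in wild types and from 50.5, 43.9, 42.6 and 61.2 CPM to 35, 25.5, 33.4 and 30.5 CPM in mutants. Neither pair of groups overlapped (log2 -0.61, SE 0.18, adjusted p = 0.024, and -0.67, SE 0.18, adjusted p = 0.013). The wild type call was lost without non-injured wild type 2 (adjusted p = 0.08), injured wild type 1 (0.077) or injured wild type 2 (0.069). The second paxillin gene, ENSDARG00000060766, did not pass in either genotype (log2 -0.12 and -0.03), and the sum of both fell in each (log2 -0.54, adjusted p = 0.029, and -0.58, adjusted p = 0.019). When libraries were scaled by size only, the median of all genes moved to log2 0.34 in wild types and 0.26 in mutants. Of lims2, TNS1, tns2a and PXN, that setting then kept only tns2a called in wild types and only lims2 called in mutants. Endothelial markers fell beside these genes, 7 of 11 in each genotype. They summed to 348 to 419 CPM without and 219.6 to 299.5 CPM after injury in wild types, and to 356 to 406 and 215 to 281 CPM in mutants, and their part in the falls was not tested.

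Of the 4 focal adhesion kinase genes, 1 was called after injury. The ID named PTK2 stayed between 5.68 and 9.87 CPM in all 16 libraries (log2 0.17 and 0.22, adjusted p = 0.45 and 0.3). Another gene of this kinase by its symbol, ptk2ab, was at higher levels than PTK2 in every library. It fell in mutants, from 17.8, 23.6, 21.8 and 23.1 CPM to 14.5, 15.7, 14.8 and 14.5 CPM (log2 -0.54, SE 0.12, adjusted p = 0.0047). Wild types were at 24.9, 21.7, 24.6 and 26.2 CPM without injury and at 26.6, 19.6, 20.5 and 19.7 CPM after it (log2 -0.17, adjusted p = 0.33), where injured fish 1 lay above every other fish. Both PTK2B genes, for the related kinase Pyk2, were called in neither genotype and never exceeded 4.62 CPM.

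Between genotypes without injury, 1 member was higher and 5 were lower in mutants, beside 2.83% of all genes called (1.38% higher and 1.45% lower). The members called made up 10.2% of those tested, and their median log2 difference was -0.32, against -0.01 for all genes. After injury the counts were again 1 higher and 5 lower, 10.2% of those tested, beside 1.48% of all genes called (0.830% higher and 0.648% lower), with medians of -0.07 for the members and -0.00 for all genes. Of the 5 lower after injury, itga2.3 passed the filter on low counts only through wild type libraries, as given below. The counts depended on single libraries. Without injury the count was 2 without non-injured wild type 1, non-injured mutant 2 or non-injured mutant 3. It was 3 without non-injured wild type 3, injured wild type 1 or 3, non-injured mutant 1, or injured mutant 1, 2 or 4. After injury it was 3 without injured wild type 1, 2 or 3 or injured mutant 2 or 4. Without the library highest in epidermis markers in each group it was 2 in each state, and 2 members, itgam.1 and lims2, were called lower in both states in the full set.

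The largest of these differences with all libraries well above 0 was that of itgam.1. Without injury its mean was 8.02-fold lower in mutants (log2 -3.0, SE 0.27, adjusted p = 4.1e-05) and after injury 3.39-fold lower (log2 -1.76, SE 0.25, adjusted p = 0.0023), from the values given above. Both calls were kept in all 24 alternative settings. The ratio of itgam.1 to itgb2 counts was 1.74 ± 0.721 (SD, n = 4) and 0.877 ± 0.236 in non-injured and injured wild types, and 0.188 ± 0.0415 and 0.302 ± 0.0477 in the mutants. Of the 13 macrophage markers tested, 0 were called between genotypes in either state, with median log2 differences of -0.62 without injury and 0.08 after it. Of 5 neutrophil markers tested, 0 were called either, with medians of -1.11 and -0.96. The neutrophil markers summed to 23.8 to 36.4 CPM in non-injured wild types and 26.6 to 37.4 CPM in non-injured mutants. Most of these sums came from nccrp1, at 20.7 ± 1.67 CPM (SD, n = 4) in wild types and 27 ± 5.51 CPM in mutants. CSF3R (means of 2 and 1.42 CPM) and MMP9 (3.58 and 1.62 CPM) went the other way, so the sums do not stand for the listed markers alike. After injury the sums were 27.3 to 122 and 32.7 to 37.3 CPM. The part of these cells in the itgam.1 value was not tested. The second itgam gene, itgam.2, had too few counts to be tested. The sum of itgam.1 and itgam.2 differed between genotypes by log2 -2.99 (adjusted p = 5e-05) and -1.76 (adjusted p = 0.0026).

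The PINCH gene lims2 was lower in mutants in both states, at 59.2 to 71.7 CPM against 94.6 to 112 CPM without injury (log2 -0.70, SE 0.17, adjusted p = 0.036) and at 24.7 to 47.9 CPM against 69.5 to 84.9 CPM after it (log2 -1.02, SE 0.17, adjusted p = 0.0056). Genotypes did not overlap in either state. The first call was lost without 7 of the 16 libraries in turn (highest adjusted p = 0.08, without non-injured wild type 3), and the second was kept without any of them. ILK was the member that was higher in non-injured mutants, at 47.4, 51.4, 58.9 and 43.2 CPM against 36.6, 34.1, 33.2 and 42.1 CPM (log2 0.46, SE 0.11, adjusted p = 0.043). That call was fragile, made in 5 of 24 alternative settings and lost without 13 of the 16 libraries in turn (highest adjusted p = 0.14, without non-injured mutant 3).

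ITGB1 (ENSDARG00000071863) was lower in mutants after injury, at 52.9, 50.9, 55.2 and 72.4 CPM against 114, 129.7, 136 and 122 CPM in wild types (log2 -1.12, SE 0.19, adjusted p = 0.0064), a call kept in all 24 settings. Without injury, mutants 1 and 2 were at 78.1 and 83.4 CPM and mutants 3 and 4 at 47.3 and 45.4 CPM, against 92.2 to 104 CPM in wild types, and the difference did not pass the test. The ratio of ENSDARG00000104484 to this gene was 0.241 ± 0.0304 (SD, n = 4) and 0.278 ± 0.0195 in non-injured and injured wild types and 0.463 ± 0.155 and 0.796 ± 0.148 in mutants. All 4 ITGB1 genes summed were lower in mutants after injury (log2 -0.64, SE 0.14, adjusted p = 0.03) and did not pass without injury (log2 -0.43, SE 0.14, adjusted p = 0.11).

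The remaining differences between genotypes were called in 1 state each. Without injury TNS1 was lower in mutants (log2 -0.60, SE 0.15, adjusted p = 0.046), as were ITGA10 (log2 -0.95, SE 0.24, adjusted p = 0.046) and ITGA3, an alpha chain of laminin receptors (log2 -1.86, SE 0.35, adjusted p = 0.013). ITGA3 stood at 4.56, 1.77, 3.87 and 3.99 CPM in wild types and at 0.646, 1.44, 0.739 and 1.09 CPM in mutants. The TNS1 call was lost without 13 of the 16 libraries in turn and the ITGA10 call without 12, with the highest adjusted p of 0.13 and 0.14, both without non-injured mutant 3. The ITGA3 call was kept without any of them but not in a fit restricted to the 8 non-injured fish (adjusted p = 0.062).

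After injury ITGA5 was higher in mutants (log2 0.62, SE 0.14, adjusted p = 0.035), and ptk2ab (log2 -0.54, SE 0.12, adjusted p = 0.037) and itga2.3, a gene of the collagen-binding alpha2 chain, were lower. The ITGA5 call was lost without 6 of the 16 libraries in turn (highest adjusted p = 0.11, without injured mutant 4). The ptk2ab and itga2.3 calls were each lost without 8 (highest 0.12 for both, without injured wild type 1). The itga2.3 values were 3.88, 0.967, 1.28 and 0.465 CPM in injured wild types and 0, 0.138, 0 and 0.0502 CPM in injured mutants, few enough counts that its size is uncertain. No mutant library, injured or not, exceeded 0.323 CPM, so itga2.3 passed the filter on low counts only through wild types. Its call was lost with no low count filter (adjusted p = 0.051).

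**Figure D4:**
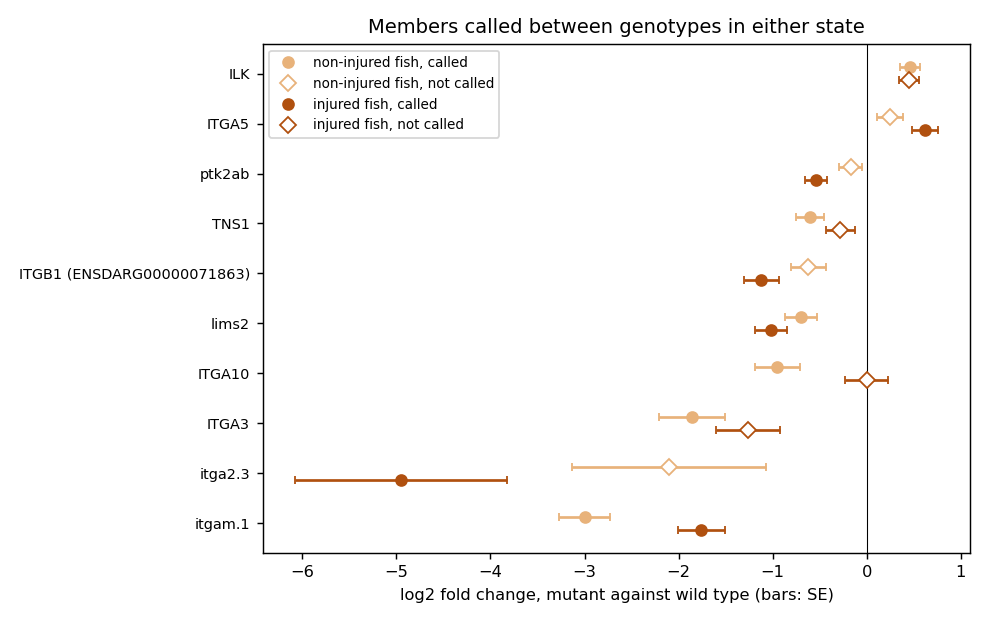
Log2 fold change of mutant against wild type with its SE for the 10 members called in at least 1 state, in non-injured (light) and injured (dark) fish, with filled circles where the gene was called and open diamonds where it was not. The 2 circles of itgam.1 and of lims2 are both filled, and only ILK and ITGA5 lie to the right of 0 in both states.

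Whether injury acted differently in the 2 genotypes was tested as the difference between the injury responses. The count of members called was 0 with edgeR and also 0 with DESeq2 and limma-voom, beside 0.0606% of all genes (0.0182% higher and 0.0424% lower). At an unadjusted p below 0.05 there were 6: itgam.1 (log2 difference 1.24, SE 0.35, adjusted p = 0.37), ITGA10 (0.95, SE 0.33, adjusted p = 0.51), FERMT3 (ENSDARG00000079267) (1.40, SE 0.53, adjusted p = 0.59), tns1a (0.76, SE 0.31, adjusted p = 0.64), itgae.1 (0.91, SE 0.40, adjusted p = 0.66) and ptk2ab (-0.37, SE 0.17, adjusted p = 0.68). The share of all genes at that unadjusted threshold was not computed here, so these 6 cannot be read as more than in other genes. With 0 members called for the difference, those called in mutants and not in wild types are not shown to respond differently.

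Several members were highest where epidermis markers were highest. ITGB4, the beta chain of hemidesmosomes, reached 93.3 CPM in non-injured wild type 1 and 53.5 CPM in injured wild type 1, the 2 libraries highest in epidermis markers, against 28.3 to 66 and 21 to 32.2 CPM in the other fish of their groups. The alpha chain itga6b was at 60 and 37.3 CPM in the same libraries, against 17.9 to 34.5 and 17.6 to 23.4 CPM. ITGA2 likewise was at 4.27 and 4.67 CPM there, against 1.09 to 1.44 and 1.27 to 1.9 CPM. ITGB4, itga6b and ITGA2 were called in 0 of the 5 comparisons, and the part of epidermis in their values was not tested. ITGA3 was lower in non-injured mutants as given above, and the call was kept without the library highest in epidermis markers in each group. Of the 10 epidermis markers themselves, 0 were called in any comparison, with a median log2 difference of -1.93 between genotypes without injury, and their part in the ITGA3 value was not tested.

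**Figure D5:**
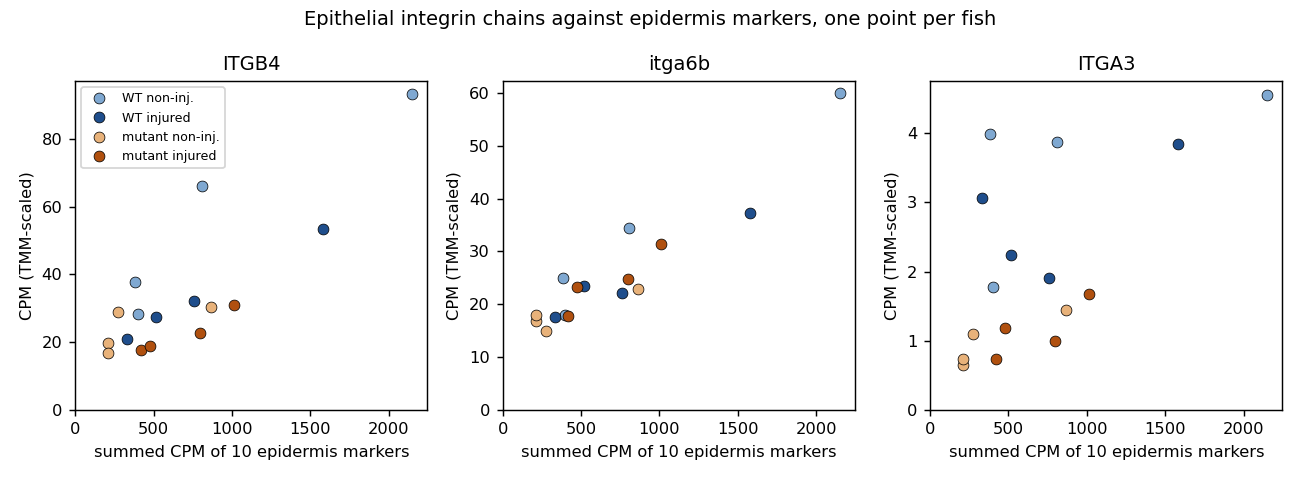
CPM of ITGB4, itga6b and ITGA3 (y axes) against the summed CPM of 10 epidermis markers (x axis), with 1 point for each of the 16 fish, coloured by group. The 2 wild type libraries farthest to the right have the highest itga6b values. The 8 mutants lie at or below 1.68 CPM for ITGA3, with markers at 210.1 to 1013 CPM, and none reaches the marker level of those 2 libraries.

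Many ligands of these receptors rose after injury. Of 55 IDs in a list of integrin ligands (laminins, nidogens, fibronectin, thrombospondins, tenascins, periostin, tetraspanins and others), 46 were tested. In wild types 23 rose and 3 fell, which is 56.5% called beside 23.8% of all genes tested. In mutants 26 rose and 1 fell, which is 58.7% beside 27.2%. Summed over the list, the level went from between 2321 and 2718 to between 4647 and 5619 CPM in wild types and from between 1937 and 2167 to between 4275 and 5249 CPM in mutants.

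Ligands of the receptor chains that rose were among them. The laminin chain LAMB1 (ENSDARG00000101209) went from 9.9 ± 2 (SD, n = 4) to 42.4 ± 7.59 CPM in wild types and from 11.8 ± 0.918 to 45.2 ± 4.13 CPM in mutants (log2 2.10 and 1.93, SE 0.16). NID1 (ENSDARG00000103129), a nidogen that binds laminin, rose by log2 1.62 and 1.89 (SE 0.17). In wild types fibronectin, FN1 (ENSDARG00000006526), went from 177 ± 14.1 to 797 ± 210.2 CPM (log2 2.17, SE 0.25, adjusted p = 3.1e-05). In mutants FN1 (ENSDARG00000006526) went from 154 ± 28.8 (SD, n = 4) to 514 ± 187 CPM (log2 1.74, SE 0.24, adjusted p = 0.00015). Periostin, POSTN (ENSDARG00000104267), rose by log2 1.28 and 1.37 (SE 0.15).

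Between genotypes 3 of the 46 ligands tested were lower in mutants without injury, which is 6.52% beside 2.83% of all genes called (1.45% lower). They were the thrombospondin THBS1 (ENSDARG00000103775, log2 -1.0, SE 0.19, adjusted p = 0.014), the tetraspanin CD81 (ENSDARG00000022437, log2 -1.06, adjusted p = 0.042) and tnn, a tenascin (log2 -0.72, adjusted p = 0.049). After injury 1 was lower, which is 2.17% beside 1.48% of all genes called (0.648% lower). This was THBS4 (ENSDARG00000020072), a thrombospondin of the muscle and tendon matrix. It averaged 83.6 ± 14.9 CPM (SD, n = 4) in injured wild types and 33.5 ± 5.55 CPM in injured mutants (log2 -1.32, SE 0.20, adjusted p = 0.0029). The count of 3 without injury was 1 without any 1 of non-injured wild type 3, injured wild type 3, non-injured mutants 3 and 4 or injured mutants 3 and 4. The count of 1 after injury was 2 without non-injured wild type 1 or 3. For the difference between injury responses 0 ligands were called.

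Further adaptors and signalling proteins of adhesion sites, 73 IDs with 70 tested, gave 11 that rose and 8 that fell in wild types and 14 and 7 in mutants. The shares called, 27.1% in wild types and 30% in mutants, were close to the 23.8% and 27.2% of all genes tested. The 19 called in wild types were 11 without injured wild type 1 or 2. The testin gene TES, a zyxin-related adaptor, rose in both (log2 1.12, SE 0.24, in each), and the adaptor CRKL fell in both (log2 -0.56 and -0.46, SE 0.11). KANK1 (ENSDARG00000060102), which binds talin, fell in wild types from 25 ± 4.93 (SD, n = 4) to 13.7 ± 0.888 CPM (log2 -0.87, SE 0.13, adjusted p = 0.00035), and EVL, an actin regulator that zyxin recruits, fell by log2 -1.20 (SE 0.27, adjusted p = 0.0049). In mutants KANK1 fell by log2 -0.46 (SE 0.13, adjusted p = 0.016) and EVL by log2 -0.97 (SE 0.27, adjusted p = 0.014). RAPGEF1 (ENSDARG00000043593), an exchange factor for the talin activator Rap1, rose in both (log2 0.80 and 1.21, SE 0.20) and was higher in mutants after injury (log2 0.87, SE 0.19, adjusted p = 0.035). It was the 1 member of this list called between genotypes after injury, and GIT2 (ENSDARG00000061915), a paxillin-binding protein, was the 1 called without it (log2 0.81, SE 0.18, adjusted p = 0.025). Each is 1.43% of the 70 tested, beside 1.48% of all genes after injury and 2.83% without it. The count without injury was 0 without non-injured wild type 1, 5 without non-injured wild type 4 and 2 without injured mutant 1, and that after injury was 2 without non-injured wild type 1 or 3.

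Outside the calls, 35 of the 59 tested members were called in neither injury comparison. For the chains not described above, ITGA8, ITGA9, itga3a and ITGB8, for the talin gene tln2b and for the second kindlin-3 gene, FERMT3 (ENSDARG00000030938), log2 fold changes after injury lay between -0.73 (ITGB8 in mutants) and 1.08 (FERMT3 in wild types). None of these 6 genes was called in any of the 5 comparisons. The uncalled members also included TLN1, TLN2, both vinculins, ILK, FERMT2, PTK2, ITGA1 and ITGB5. A miss of the threshold does not show that these levels were equal, and for TLN1, with an SE of 0.11 on each log2 fold change, small changes would have gone undetected.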

How the data were processed

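Poly A RNA of 16 fish was sequenced from stranded libraries (per the labels' protocols). The authors deposited 1 table of estimated counts per gene. RSEM 1.3.3, fastp 0.23.4 and STAR (versions 2.7.0 and 2.7.10) are listed in the submitters' processing notes, with no role for each. Genome build, annotation and strand handling during counting were not named in the sources used here. RSEM divides reads that fit several genes, so each of a set of similar genes is uncertain alone, and overlapping or antisense genes may be too. Of the deposited estimated counts 94.29% were whole (tolerance 1e-06), and all were rounded before testing. Each column carries the number that a sample's description gives, which mapped all 16 and left 0 over. A naming table gave symbols for 29201 of 32520 IDs.

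edgeR 4.0.16 in R 4.3.3 kept 16514 genes (filterByExpr, minimum count 10, total 15), scaled libraries by TMM and fitted a robust quasi-likelihood model with 1 mean per group to all 16 libraries (biological coefficient of variation 31.3%). The effect of injury was tested within each genotype, the effect of genotype within each injury state, and their interaction as the difference between injury effects. Adjusted p-values are Benjamini-Hochberg over all genes tested, two-sided, and called below 0.05. The SE comes from the F statistic. The CPM are scaled after TMM. Replicates are single fish, and no pair of libraries in a group was alike within sampling noise (median chi-square per gene 1.58 to 8).

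The genes and lists were chosen with earlier results of these data known. Named were the core members, up to 8 called members each way per injury comparison, up to 10 called between genotypes, and up to 6 called per ligand or adaptor list. ITGA1, ITGA2, ITGA4, ITGA8, ITGA9, itga3a, ITGA11 (ENSDARG00000007950), ITGB4, ITGB5, ITGB8, itgb7, ITGBL1, tns1a, tns2b, tns3.2 and the genes below the filter were named after their values were seen. Alternatives were RLE and library size scaling, DESeq2 1.42.0, limma-voom (limma 3.58.1), no low count filter, a replicate block, fits to 8 libraries and leaving out each library; leaving out the libraries highest in epidermis markers and summing genes of 1 symbol were chosen after seeing the data. Ratios of gene pairs within a library include genes called here and were not among the planned comparisons. They are descriptions and not separate tests. The scripts were tested on simulated data. Promoter sequences were not analysed here.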

Additional observations from a re-analysis of the deposited data

Results flagged for a closer look

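For each of 44 tested named members the 4 libraries of each group were screened with Dixon's ratio at its 95% critical value, which made 176 groups, and 13 had 1 library far from the other 3. Chance flags about 1 in 20 groups. The part of any technical or biological source in these values was not tested.

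Among receptor chains, ITGA10 was at 27.5 CPM in non-injured wild type 2, against 15 to 16.8 CPM in the other fish of the group. ITGA5 was at 22.7 CPM in non-injured mutant 4, against 16 to 17 CPM. The same fish had the high itgam.1 value of its group, 5.18 CPM against 3.07 to 3.2 CPM. ITGB6 was at 1.84 CPM in non-injured wild type 1, against 0.305 to 0.453 CPM, and ITGB1 (ENSDARG00000053232) at 3.32 CPM in the same library, against 0.589 to 0.826 CPM. ITGB3 (ENSDARG00000045070) was low in non-injured mutant 2, at 0.801 CPM against 1.41 to 1.51 CPM.

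Among adaptors and kinases, PTK2B (ENSDARG00000039577) was at 4.62 CPM in non-injured wild type 1, against 0.548 to 0.877 CPM, and at 0.907 CPM in non-injured mutant 2, against 0 to 0.0639 CPM. These 2 libraries had the highest summed epidermis markers of their groups, 2150 and 864 CPM. PARVA (ENSDARG00000043710) was at 4.59 CPM in non-injured wild type 3, against 3.56 to 3.72 CPM. FERMT2 was at 41.2 CPM in non-injured mutant 1, against 26.7 to 29 CPM, and TLN2 at 106 CPM in non-injured wild type 4, against 75.8 to 78.2 CPM. In injured fish, ptk2ab was at 26.6 CPM in wild type 1, against 19.6 to 20.5 CPM, and FERMT3 (ENSDARG00000079267) was low in mutant 4, at 2.16 CPM against 3.31 to 3.5 CPM.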

How the results depend on the processing

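Of 47 calls of members over the 4 comparisons between groups, 24 were kept in all 24 alternative settings, 29 in all 16 fits without 1 library, and 0 changed sign in any setting. Calls lost numbered 0 with DESeq2 and with RLE scaling, 8 with limma-voom, 10 with no low count filter, 6 with only the 8 libraries compared, 13 with scaling by library size only and 17 without the library highest in epidermis markers in each group. Injury in wild types gave 13 members as reported and 21 (20 higher, 1 lower) with library size only, and 10 to 20 when each library was left out. Injury in mutants gave 22 as reported and 15 to 23 without 1 library. Mutant against wild type without injury gave 6 as reported, 10 with DESeq2, 3 with no low count filter, and 2 with each of library size only, limma-voom, only the 8 libraries compared and the libraries highest in epidermis markers left out, and 2 to 6 without 1 library. Mutant against wild type after injury gave 6 as reported, 10 with DESeq2, 3 with the replicate block, 2 without the libraries highest in epidermis markers, and 3 to 7 without 1 library. The difference between injury responses gave 0 in every setting run. The cause of these differences was not tested, beyond the smaller number of libraries in the fits that leave some out. Library size scaling moved the median of all genes to log2 0.34 and 0.26 for injury in wild types and mutants and to 0.21 and 0.13 for mutants against wild types without and after injury. Libraries with the same replicate number are different fish, and their deviations from group means correlated between 0.0532 and 0.344 for injury in wild types, where 3 of 4 numbers were above 0.1, and between -0.194 and 0.156 elsewhere. Since not every number was above 0.1, they were treated as unpaired. With the replicate block, 13 and 20 members were called for injury in wild types and mutants, 4 and 3 between genotypes without and after injury, and 8 calls were lost: lims2 in wild types (adjusted p = 0.059), PARVA (ENSDARG00000035629, 0.065) and itgae.2 (0.067) in mutants, lims2 (0.057) and ILK (0.075) between genotypes without injury, and ptk2ab (0.083), ITGA5 (0.064) and itga2.3 (0.066) after it. Members under about 1 CPM, such as itga2.3, rest on few counts.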

Other observations

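Genes that neighbour the members called between genotypes were looked up after those values were seen, by gene order in RefSeq's assembly GRCz12tu, up to 15 on each side. Only names and order were taken from that assembly. The gene itgam.1 had 30 neighbours, of which 9 were tested, and 2 of these were called between genotypes in both states. The gene nif3l1, 11 places away, was higher in mutants (log2 1.37, SE 0.20, adjusted p = 0.0024 without injury and 1.38, SE 0.19, adjusted p = 0.0021 after it). The T-box gene tbx6, 9 places away, was lower in mutants (log2 -4.30, SE 0.48, adjusted p = 0.00019, and -4.26, SE 0.44, adjusted p = 0.0001). It averaged 1.47 ± 0.684 and 2.17 ± 0.46 CPM (SD, n = 4) in non-injured and injured wild types and 0.0693 ± 0.0254 and 0.108 ± 0.0455 CPM in mutants. For ITGA10, 1 of 10 tested neighbours was called in each state, a different gene each time. Without injury it was trim109, lower in mutants (log2 -0.63, SE 0.16, adjusted p = 0.046). After injury it was si:dkey-85k15.6, higher in mutants (log2 1.33, SE 0.30, adjusted p = 0.042). For ILK, lims2, ptk2ab and ITGA5 the count was 0 of 9, 6, 11 and 13, and lims2 had only 17 neighbours in all. Among all genes tested, 2.83% were called between genotypes without injury and 1.48% after it. The members itgam.1, ITGA10, ILK, lims2, ptk2ab and ITGA5 lie on other chromosomes than ankrd1a in that assembly. For ITGA3, itga2.3, TNS1 and ITGB1 (ENSDARG00000071863) no single match was found in the table, and their neighbours were not analysed here.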
